A study of Mus musculus with 8 samples.

Results

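Steroid-metabolising enzymes were followed in mouse liver as 10 genes chosen by name. They were the steroid hydroxylases Cyp17a1 and Cyp39a1, the hydroxysteroid dehydrogenases Hsd3b2, Hsd3b3, Hsd3b5, Hsd3b7, Hsd11b1, Hsd17b2 and Hsd17b6, and the reductase Srd5a1. The names were drawn up with earlier results of these arrays known, and Cyp17a1 and Hsd3b2 had been selected on their difference between the genotypes in the same arrays. That difference is therefore given for this pair as a description, with no p-value. Every probe set annotated to exactly 1 of the 10 symbols was kept, which gave 10 probe sets for 9 of the 10 genes, out of 22626 probe sets tested and 12393 genes named. Srd5a1 had no probe set of its own and is not analysed here.

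Total RNA was taken from the whole livers of 4 WT mice and 4 SIRT7 KO mice, SIRT7-/- animals that lack this histone deacetylase, and each mouse was measured on 1 Affymetrix array. The comparison asks which hepatic genes differ when SIRT7 is missing, in animals that the study uses as a model of fatty liver disease on a chow diet. No drug or further allele is given for either group. For the animals on these arrays, age, sex, strain and litter are not given in the labels or methods, and every p-value rests on the spread among 8 livers. By the levels of Eif2s3y and Xist, given below, all 8 livers read as male. Levels are log2 expression values, on which a difference of 1 stands for a doubling, and levels of different probe sets are not compared.

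Steroid hormones are made from cholesterol in the adrenal cortex and the gonads, where CYP17A1 hydroxylates pregnenolone and progesterone and opens the way to cortisol in many mammals and to androgens, and where enzymes of the HSD3B family convert Δ5 to Δ4 steroids. The liver mainly inactivates steroids: reductases and hydroxysteroid dehydrogenases reduce or oxidise them, sulfotransferases and glucuronosyltransferases conjugate them, and related hydroxylases and dehydrogenases, among them CYP39A1 and HSD3B7, turn cholesterol into bile acids. Hepatic steroid enzymes of the mouse are well known to differ between males and females under the control of growth hormone secretion, and Hsd3b5 is a classical male-predominant gene among them.

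Hsd3b2, Hsd3b3 and Hsd3b5 lie beside each other on mouse chromosome 3, in the gene order Gm4450, Hsd3b4, Gm10681, Hsd3b5, Hsd3b2, Hsd3b3, Hsd3b6, Hsd3b1, and Hsd3b7 lies apart from them on chromosome 7. The 250 bases in front of the start of these 3 neighbours are shown because all 3 had a negative difference and the same arrays were low in each of them. They are RefSeq windows of the GRCm38.p6 assembly on the minus strand, written 5′ to 3′, at chr3:98645535-98645784 for Hsd3b5, chr3:98763129-98763378 for Hsd3b3 and chr3:98724544-98724793 for Hsd3b2. Capitals mark the longest run that Hsd3b5 and Hsd3b3 share and, in Hsd3b2, the longest run that it shares with Hsd3b3.
Hsd3b5 promoter: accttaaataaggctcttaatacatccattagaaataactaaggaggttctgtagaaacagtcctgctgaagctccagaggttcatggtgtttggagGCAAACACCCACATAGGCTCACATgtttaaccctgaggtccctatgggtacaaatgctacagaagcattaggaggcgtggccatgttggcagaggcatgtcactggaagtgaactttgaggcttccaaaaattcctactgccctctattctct
Hsd3b3 promoter: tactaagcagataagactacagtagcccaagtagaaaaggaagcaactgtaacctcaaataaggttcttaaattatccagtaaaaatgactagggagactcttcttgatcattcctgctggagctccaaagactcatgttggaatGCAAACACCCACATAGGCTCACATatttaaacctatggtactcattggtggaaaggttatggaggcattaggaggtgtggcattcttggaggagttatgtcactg
Hsd3b2 promoter: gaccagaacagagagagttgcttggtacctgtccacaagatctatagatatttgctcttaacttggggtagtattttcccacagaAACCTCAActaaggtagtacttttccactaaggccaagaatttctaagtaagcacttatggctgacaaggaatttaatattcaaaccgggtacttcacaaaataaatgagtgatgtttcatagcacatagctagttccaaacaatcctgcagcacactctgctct

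The run shared by Hsd3b5 and Hsd3b3 was 24 bases long and lay 153 to 130 bases upstream of the start in Hsd3b5 and 105 to 82 bases upstream in Hsd3b3. The longest run that Hsd3b2 shared with Hsd3b3 was 8 bases, 165 to 158 bases upstream. In global alignments, Hsd3b5 and Hsd3b3 were identical over 60.4% of the 250 bases, with 102 gap positions. Hsd3b5 and Hsd3b2 were identical over 49.2% (20 gap positions) and Hsd3b2 and Hsd3b3 over 47.6% (30). Runs and identity between unrelated windows were not measured. The windows of Hsd3b5 and Hsd3b3 were thus the most alike of the 3 pairs. Windows of 300 bases, 250 before and 50 after the start, were found for 7 of the 10 genes (9 windows), and Cyp17a1, Cyp39a1 and Hsd17b2 had none. The STAT5-type motif TTCNNNGAA, searched on both strands, lay in 8.30% of 32851 windows and among the members in that of Hsd3b7. The AP-1-type motif TGANTCA lay in 7.81% of all windows and the motif AAGGTCA, a core site of the NR5A type, in 4.72%, and neither was in a window of a member. No window of a member held more than 1 of these motifs, and a match is a description of the window.

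The labels held for the deleted gene. Sirt7 lay between 8.57 and 8.98 on the WT arrays and between 4.40 and 4.90 on the SIRT7 KO arrays, the latter near 4.56, the lower quartile over the whole array (called background level below). Array medians ran from 6.30 to 6.36, and any pair of arrays correlated at 0.986 to 0.996. GAPDH control probes at the 3′ end exceeded those at the 5′ end by 0.22 ± 0.055 in WT and by 0.11 ± 0.082 in SIRT7 KO livers (SD, n = 4 each; exact permutation p = 0.0286, two-sided, the smallest that 4 against 4 arrays can give). SIRT7 KO array 1 was at -0.016, while the other SIRT7 KO arrays lay between 0.14 and 0.16, close to WT array 4 at 0.16. The part of this measure in the results was not tested. SIRT7 KO arrays 1 and 2 stood apart from SIRT7 KO arrays 3 and 4 in several of the genes below, and values are therefore given for each array. Over all probe sets, 4.31% were called at an adjusted p under 0.15, 1.92% as higher and 2.39% as lower in SIRT7 KO, and in 9.35% the 4 values of SIRT7 KO did not overlap the 4 values of WT. The 8 hepatocyte markers measured, out of 9 listed, had a mean level of 14.113 to 14.247 on the WT arrays and 14.044 to 14.108 on the SIRT7 KO arrays. This mean was thus slightly lower on every SIRT7 KO array than on every WT array. Of the 8 markers 0 were called, 1 had a positive difference, and the median was -0.076. In whole liver, fewer cells of a type and less RNA in each cell cannot be told apart.

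Cyp17a1 was higher in SIRT7 KO livers, and Hsd3b2 was lower. Cyp17a1 had log2 levels of 7.06, 6.79, 7.20 and 7.88 in WT mice and of 10.99, 10.98, 9.20 and 8.28 in SIRT7 KO mice. All 4 SIRT7 KO arrays lay above all 4 WT arrays, with SIRT7 KO arrays 1 and 2 far above SIRT7 KO arrays 3 and 4, and with SIRT7 KO array 4 close to the highest WT array. The mean rose from 7.23 ± 0.47 (SD, n = 4) to 9.86 ± 1.35 (SD, n = 4), a difference of 2.63 ± 0.58 (SE) or 6.20-fold. Leaving out 1 array at a time moved this difference between 2.25 and 3.16.

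Hsd3b2, a member of the 3β-hydroxysteroid dehydrogenase family, had log2 levels of 10.89, 10.39, 10.17 and 11.35 in WT mice and of 8.36, 9.03, 9.54 and 9.68 in SIRT7 KO mice. All SIRT7 KO values lay below all WT values, and SIRT7 KO array 1 was the lowest. The mean fell from 10.70 ± 0.53 (SD, n = 4) to 9.15 ± 0.60 (SD, n = 4), a difference of -1.55 ± 0.32 (SE) or 2.92-fold, with a range of -1.72 to -1.28 when 1 array was left out. Within the SIRT7 KO group, Cyp17a1 and Hsd3b2 ranked the 4 arrays in exactly opposite order. Within WT they did not, since WT array 4 was the highest in both. The contrast of both genes by array is shown in the plot of all members.

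**Figure D1:**
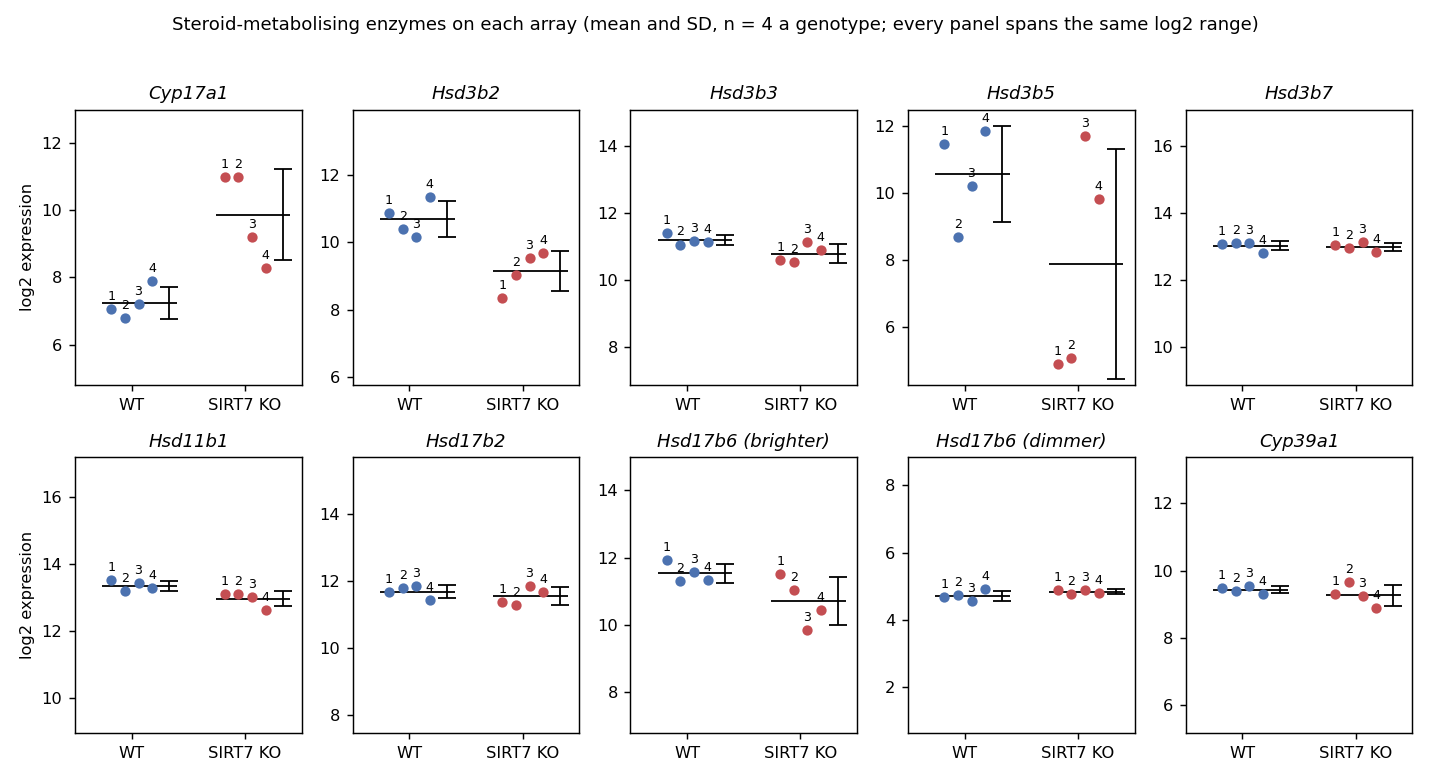
Log2 expression (vertical axis) of the 10 member probe sets, 1 panel each, on the 4 WT arrays (blue) and 4 SIRT7 KO arrays (red), numbered by replicate, with the mean (horizontal line) and SD (bar). Cyp17a1 and Hsd3b2 do not overlap between the genotypes, while Hsd3b5 lies at 4.90 and 5.10 on SIRT7 KO arrays 1 and 2 and at 11.70 and 9.83 on SIRT7 KO arrays 3 and 4.

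Because steroid hormones are made in the adrenal cortex and gonads, markers of these and of neighbouring tissues were read beside Cyp17a1. Of the 15 listed markers of steroidogenic adrenal cortex and gonad, 11 were measured and 0 were called. Their mean level ran from 5.744 to 5.770 on the WT arrays and from 5.772 to 5.789 on the SIRT7 KO arrays. It was thus slightly higher on every SIRT7 KO array than on every WT array. Of the 11 differences 6 were positive, the median was 0.023, and the largest rise was that of Mrap (0.27 ± 0.12 SE, limma adjusted p = 0.348). Of these 11, 6 lay below background level in both genotypes. They were Cyp11a1, Cyp11b2, Mc2r, Hsd3b1, Nr0b1 and Inha. Cyp11a1, the side-chain cleavage enzyme that starts steroid synthesis, was at 4.20 ± 0.11 in WT and 4.24 ± 0.09 in SIRT7 KO (SD, n = 4). The aldosterone synthase gene Cyp11b2 was at 3.86 ± 0.089 and 3.83 ± 0.12, the adrenocorticotropin receptor gene Mc2r at 3.88 ± 0.19 and 4.03 ± 0.12, and Hsd3b1, the 3β-HSD of adrenal and gonad, at 3.90 ± 0.075 and 3.92 ± 0.11. The other 5 lay above background level, which is a quartile and no limit of detection. They were Star (5.49 ± 0.025 and 5.47 ± 0.094), which carries cholesterol into mitochondria, Nr5a1 (5.15 ± 0.22 and 5.18 ± 0.091), the steroid 21-hydroxylase gene Cyp21a1 (6.79 ± 0.085 and 6.77 ± 0.087), Fdx1, the electron donor of mitochondrial P450 enzymes (12.53 ± 0.080 and 12.29 ± 0.12), and Mrap (9.57 ± 0.23 and 9.84 ± 0.14), and 0 of them were called. All 5 adrenal medulla markers were measured with 0 called, at mean levels of 4.99 to 5.23 in WT and 5.08 to 5.41 in SIRT7 KO. Of 7 kidney markers measured out of 8, Kap was called higher (5.28 ± 0.084 against 5.64 ± 0.12, limma adjusted p = 0.0823), while a further probe set of Kap, below background level in both groups, was not (0.14, adjusted p = 0.423), and the called probe set passed in 4 of 8 fits without 1 array. The mean level of the list ran from 4.54 to 4.74 in WT and from 4.63 to 4.74 in SIRT7 KO.

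Hsd3b5 and Hsd3b3, beside Hsd3b2 in the cluster, had negative differences that did not pass the test. Hsd3b5 had log2 levels of 11.45, 8.68, 10.21 and 11.85 in WT mice and of 4.90, 5.10, 11.70 and 9.83 in SIRT7 KO mice. SIRT7 KO arrays 1 and 2 lay far below every WT array and close to background level, whereas SIRT7 KO arrays 3 and 4 lay inside the WT range. The difference was -2.67 ± 1.48 (SE, limma adjusted p = 0.458), in size the largest of the 10 probe sets and the one with the widest SE. It ran from -3.94 to -1.67 when 1 array was left out. Hsd3b3 had levels of 11.41, 11.06, 11.17 and 11.14 in WT and of 10.61, 10.53, 11.12 and 10.89 in SIRT7 KO. SIRT7 KO arrays 1 and 2 were again the lowest, and SIRT7 KO array 3 lay within the WT values. The difference was -0.41 ± 0.14 (SE, adjusted p = 0.206), and without SIRT7 KO array 3 it was -0.52 (adjusted p = 0.116).

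Probe sets of this family can bind RNA of near-identical copies. The suffix of the Hsd3b3 probe set marks probes that may cross-hybridise, so its level may hold RNA of other Hsd3b genes. A further probe set, annotated to Hsd3b6, Hsd3b3 and Hsd3b2 together and therefore no member, had levels of 10.94, 10.71, 10.75 and 11.09 in WT and of 10.14, 10.08, 10.74 and 10.51 in SIRT7 KO. SIRT7 KO arrays 1 and 2 were the lowest here too, and the difference was -0.51 ± 0.15 (SE, adjusted p = 0.167). Hsd3b7, which lies outside the cluster and acts in bile acid synthesis, had levels of 13.07, 13.10, 13.09 and 12.81 in WT and of 13.03, 12.96, 13.13 and 12.83 in SIRT7 KO. The groups overlapped, with a difference of -0.032 ± 0.092 (SE, adjusted p = 0.912).

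Hsd11b1, which regenerates active glucocorticoid in the liver, had levels of 13.52, 13.18, 13.42 and 13.30 in WT and of 13.10, 13.10, 13.03 and 12.63 in SIRT7 KO. All 4 SIRT7 KO arrays lay below all 4 WT arrays, and SIRT7 KO array 4 was the lowest. The difference of -0.39 ± 0.12 (SE) did not pass (adjusted p = 0.172), and it passed with array weights (-0.42, adjusted p = 0.144) and with a variance trend and robust moderation (adjusted p = 0.139). Hsd17b6, an enzyme of androgen and retinol oxidation, had levels of 11.92, 11.30, 11.58 and 11.33 in WT and of 11.51, 11.03, 9.84 and 10.44 in SIRT7 KO. Here SIRT7 KO arrays 3 and 4 were the low ones, and SIRT7 KO array 1 lay within WT. The difference was -0.83 ± 0.32 (SE, adjusted p = 0.263), and without SIRT7 KO array 1 it was -1.10 (adjusted p = 0.142). The dimmer probe set of Hsd17b6 lay between 4.56 and 4.91 on all 8 arrays, about background level, with a difference of 0.11 ± 0.085 (SE, adjusted p = 0.601).

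Hsd17b2, which oxidises estradiol and testosterone to their less active ketones, had levels of 11.66, 11.78, 11.85 and 11.42 in WT and of 11.37, 11.29, 11.85 and 11.66 in SIRT7 KO. The genotypes overlapped, with a difference of -0.14 ± 0.14 (SE, adjusted p = 0.711). Cyp39a1, the oxysterol 7α-hydroxylase of bile acid synthesis, had levels of 9.47, 9.41, 9.55 and 9.29 in WT and of 9.29, 9.66, 9.23 and 8.88 in SIRT7 KO. SIRT7 KO array 2 was the highest and SIRT7 KO array 4 the lowest of all 8 arrays, and the difference was -0.16 ± 0.15 (SE, adjusted p = 0.666). Across the 10 member probe sets, 1 was called higher and 1 lower, compared with 1.92% and 2.39% of all probe sets. Those called are the pair selected on this contrast, so their calls are a description and no test. In 3 of the 10 the genotypes did not overlap (Cyp17a1, Hsd3b2 and Hsd11b1), compared with 9.35% of all probe sets. Of the 10 differences 8 were negative, and the median of the 10 was -0.28 beside -0.0031 over all probe sets. Since the members were chosen with this contrast known, nothing is read from these counts.

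**Figure D2:**
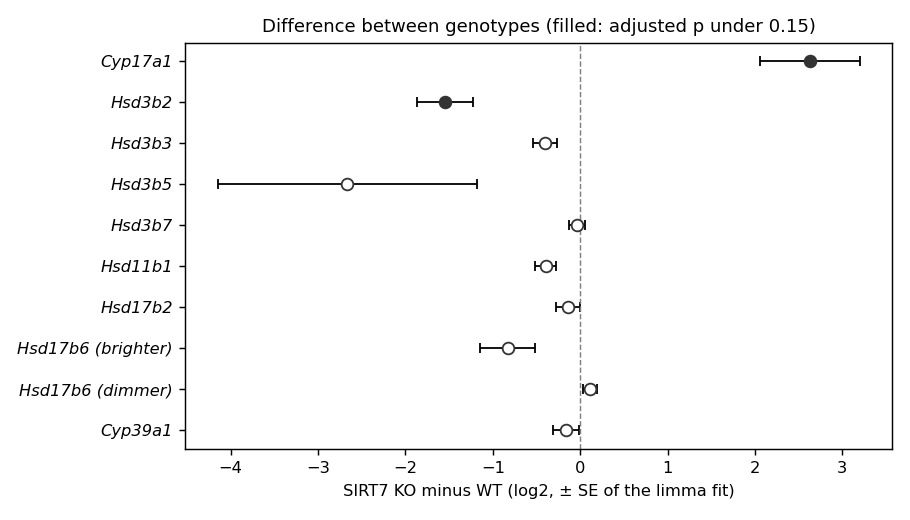
Difference between SIRT7 KO and WT in log2 expression (horizontal axis, ± SE of the limma fit over 8 arrays) for the 10 member probe sets (vertical axis), with filled points for an adjusted p under 0.15. Cyp17a1 lies at 2.63 and Hsd3b2 at -1.55, and this filled pair was selected on the contrast. The widest error belongs to Hsd3b5 at -2.67 ± 1.48.

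The spread among mice of 1 genotype was no criterion for the members, but these were chosen with earlier results of the same arrays known. Spread and difference are not independent, since a shift on only some of the SIRT7 KO arrays enlarges both. The ranks and counts below are therefore a description. Among the SIRT7 KO arrays, Hsd3b5 had the largest SD of all 22626 probe sets, at 3.41, and among the WT arrays it ranked 48th of them, at 1.43. Cyp17a1 ranked 44th in SIRT7 KO (1.35) and 808th in WT (0.47), the brighter Hsd17b6 probe set 172nd (0.72) and 2208th (0.29), and Hsd3b2 272nd (0.60) and 641st (0.53). The SD was among the top 10% of all probe sets for 7 of the 10 member probe sets in SIRT7 KO and for 4 of the 10 in WT. It was larger in SIRT7 KO than in WT for 8 of the 10, compared with 46.3% of all probe sets. Hsd3b7 (0.13 and 0.14) and the dimmer Hsd17b6 probe set (0.073 and 0.15) were the exceptions. The median SD over all probe sets was 0.12 in SIRT7 KO and 0.13 in WT. These comparisons were not matched for level, and the member probe sets share the same livers. A larger spread in SIRT7 KO was not confined to the members, as examples from the other dehydrogenases show, picked after their values were seen. Rdh9 had SDs of 0.80 in SIRT7 KO and 0.17 in WT, and Cbr1 of 0.65 and 0.060. Others of that list went the other way, such as Nsdhl with 0.066 and 0.37.

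**Figure D3:**
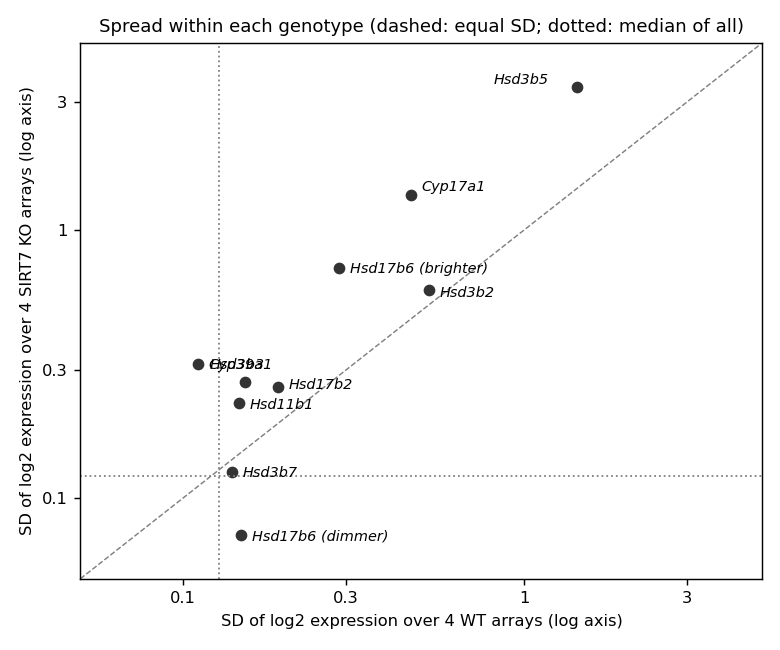
SD of log2 expression over the 4 WT arrays (horizontal axis) and over the 4 SIRT7 KO arrays (vertical axis), both on log axes, for the 10 member probe sets; the dashed line marks equal SDs and dotted lines the medians over all probe sets. Hsd3b5 has SDs of 1.43 and 3.41, and 8 of 10 points lie above the dashed line.

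The order of the SIRT7 KO arrays was looked at after the values of Hsd3b5 had been seen, and it is described with no test. SIRT7 KO arrays 1 and 2 both lay below SIRT7 KO arrays 3 and 4 in Hsd3b2, Hsd3b3, Hsd3b5 and Hsd17b2, and both lay above them in Cyp17a1, Hsd11b1, Hsd17b6 and Cyp39a1. This made 4 of 9 genes in each direction, compared with 22.6% of all genes below and 23.7% above. The order says nothing of the size of the gap, which was small in some members. Cyp39a1 was at 9.29 on SIRT7 KO array 1 and 9.23 on SIRT7 KO array 3. Hsd11b1 was at 13.10 on SIRT7 KO array 2 and 13.03 on SIRT7 KO array 3. Of 15 measured male-biased liver genes out of 22 listed, 13 (86.7%) were below and 0 above. Of 18 measured female-biased liver genes out of 26 listed, 2 were below and 9 above, many of them at low levels. On all 8 arrays the Y-linked Eif2s3y had a level of at least 9.82 and Xist, which females express, of at most 4.84. Every liver thus read as male. Genes of a list share the same 4 mice and are not independent replicates of the order.

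Examples were picked after their values were seen. Cyp2d9, a male-predominant P450, had log2 levels of 13.83, 13.38, 13.61 and 13.99 in WT and of 12.96, 12.85, 14.01 and 13.93 in SIRT7 KO. Cyp7b1, the male-predominant oxysterol and steroid hydroxylase, had 12.18, 11.73, 11.41 and 13.39 in WT and 10.07, 10.88, 12.84 and 12.61 in SIRT7 KO. In both genes SIRT7 KO arrays 1 and 2 lay below every WT array and SIRT7 KO arrays 3 and 4 within or just above the WT values, as in Hsd3b5, so that neither mean difference passed (-0.27, adjusted p = 0.715, and -0.58, adjusted p = 0.741). Cyp4a14, a fatty acid hydroxylase of the female-biased list, ran the other way, with 10.38, 9.50, 8.56 and 7.86 in WT and 12.82, 12.77, 8.11 and 9.46 in SIRT7 KO. The other 2 of the 15 male-biased genes, Mup3 and Cspg5, had neither order. The size of the gap varied widely among the 13. Cyp4a12a, another male-predominant fatty acid hydroxylase, had 11.19, 9.32, 10.44 and 11.66 in WT and 11.86, 11.88, 11.92 and 11.97 in SIRT7 KO, where SIRT7 KO arrays 1 and 2 were only slightly below the others and all 4 lay above every WT array (1.26 ± 0.41 SE, adjusted p = 0.198). Ugt2b38, a glucuronosyltransferase, had 6.51, 5.82, 6.28 and 5.53 in WT and 6.15, 7.23, 10.44 and 9.05 in SIRT7 KO, where SIRT7 KO arrays 3 and 4 stood far above all others (2.18 ± 0.79 SE, adjusted p = 0.237). These last 2 had the smallest p of the male-biased list.

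**Figure D4:**
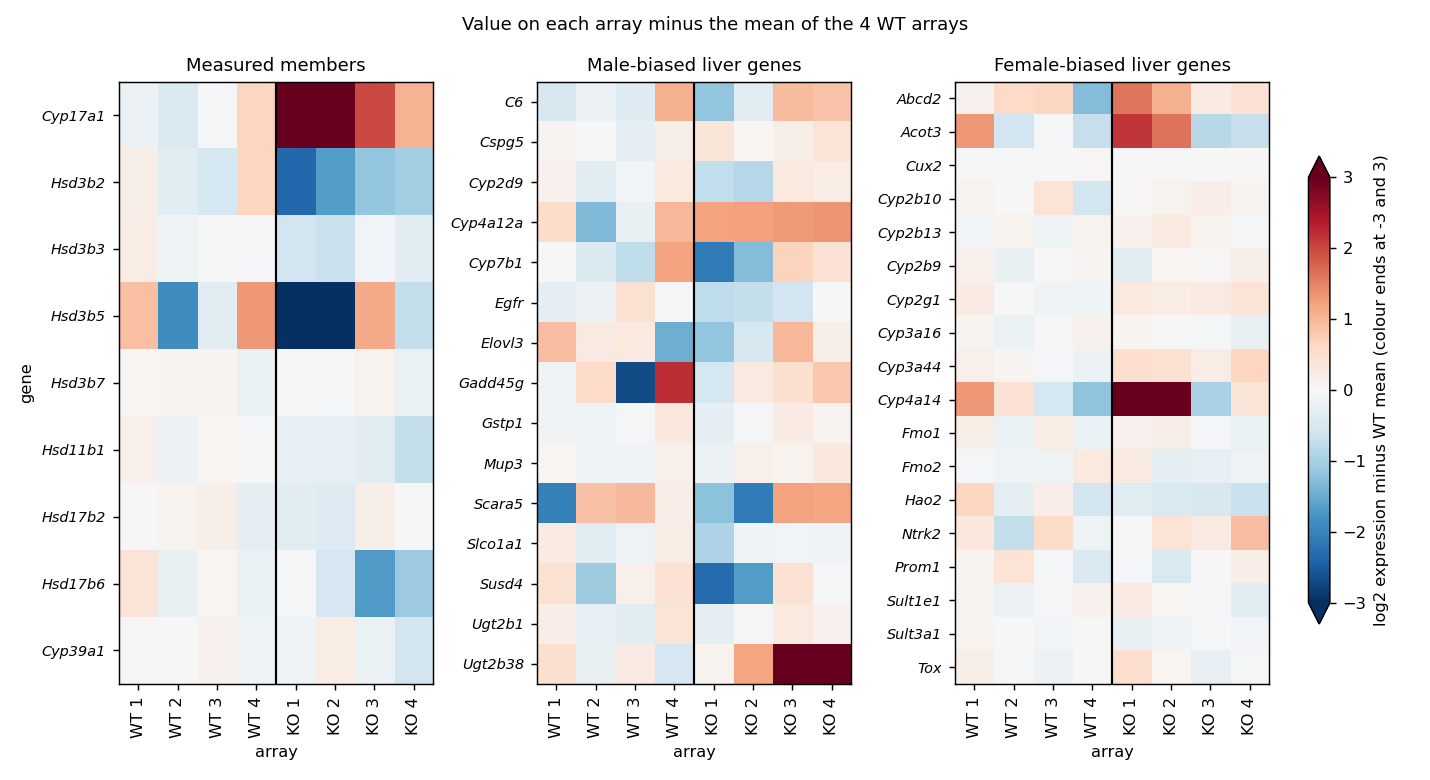
Log2 expression minus the mean of the 4 WT arrays (colour) of the 9 measured members, 15 male-biased and 18 female-biased liver genes (rows) on the 8 arrays (columns), with the colour ending at -3 and 3. In 13 of the 15 male-biased genes SIRT7 KO arrays 1 and 2 are lower than SIRT7 KO arrays 3 and 4.

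The genes most like Cyp17a1 and Hsd3b2 were found by the Pearson correlation of deviations from the genotype mean over the 8 arrays, among 6922 genes above the median level. It is a description, because the points share 8 arrays and so many genes were ranked. For Cyp17a1 the 5 leading genes were D8Ertd738e (r = 0.990), the cytochrome c oxidase subunit gene Cox4i1 (0.964), Wdr45 (0.961), Klhdc3 (0.958) and BC003965 (0.955). Their own genotype differences were small, between -0.12 and 0.12, and 0 of 5 were called. For Hsd3b2 they were Ccdc47 (0.985), the epithelial sodium channel subunit gene Scnn1a (0.980), Fam8a1 (0.979), D930016D06Rik (0.967) and the glucosidase II subunit gene Ganab (0.961). Of these, 3 of 5 were called lower in SIRT7 KO, compared with 2.39% of all probe sets. They were D930016D06Rik (-0.56 ± 0.084 SE, adjusted p = 0.0336), Scnn1a (-0.53 ± 0.14 SE, adjusted p = 0.115) and Ganab (-0.29 ± 0.079 SE, adjusted p = 0.134). The further probe set of Ganab, near background, was not called (0.026). Without 1 array, D930016D06Rik passed in 8 of 8 fits, Scnn1a in 2 of 8 (adjusted p up to 0.262) and Ganab in 0 of 8 (up to 0.269). For Hsd3b5, added after its spread was seen, they were Ercc6l2 (0.985), Cyp2d9 (0.982), Sacm1l (0.981), Susd4 (0.970) and Rassf3 (0.969), of which Cyp2d9 and Susd4 are on the male-biased list.

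The rest of steroid metabolism was read from 8 lists with 116 measured genes, each represented by its brightest probe set. Of these 116, 4 were called higher and 2 lower, compared with 4.65% of all 12393 genes, so the share of called genes was near that over all genes. The enzymes and cofactors of steroid synthesis had 12 measured genes of 20 and 0 calls, with a median difference of -0.029 (median over all genes -0.0031). Their smallest p belonged to Fdx1 (-0.25 ± 0.079 SE, adjusted p = 0.185) and to Cyb5r3, the cytochrome b5 reductase (0.36 ± 0.16 SE, adjusted p = 0.343).

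Among 17 measured of 21 other hydroxysteroid and related short-chain dehydrogenases, only Hsd17b12, which acts in fatty acid elongation, was called. It had levels of 12.45, 12.19, 12.44 and 12.32 in WT and of 12.78, 12.75, 12.66 and 12.68 in SIRT7 KO. The groups did not overlap, the rise was 0.37 ± 0.076 (SE, adjusted p = 0.0717), and the further probe set of the gene gave 0.34 (adjusted p = 0.127). Hsd17b12 passed in 6 of 8 fits without 1 array. It missed the threshold without SIRT7 KO array 2 (a difference of 0.35 and an adjusted p of 0.155) or array 4 (0.38 and 0.158). The median of the list was 0.033, and in 10 of the 17 genes SIRT7 KO arrays 1 and 2 lay above SIRT7 KO arrays 3 and 4.

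Of 9 measured steroid reductases and aldo-keto reductases out of 13, 7 had a negative difference, the median was -0.17, and 1 was called. This was Akr1c12, an aldo-keto reductase, with 10.79, 10.76, 10.73 and 10.83 in WT and 10.49, 10.65, 10.33 and 10.31 in SIRT7 KO (-0.33 ± 0.086 SE, adjusted p = 0.115). Its groups did not overlap, but it passed in only 1 of the 8 fits without 1 array, with adjusted p up to 0.258. Akr1d1, the hepatic 5β-reductase of steroid hormones and bile acid precursors, named after its value was seen, differed by -0.33 ± 0.11 (SE) without passing (adjusted p = 0.182).

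Of 19 measured conjugating genes out of 25, the phenol sulfotransferase gene Sult1a1 was called higher and Sult1b1, another cytosolic sulfotransferase, lower. Sult1a1 had 11.88, 11.74, 11.72 and 11.48 in WT and 12.20, 11.98, 12.47 and 12.18 in SIRT7 KO (0.50 ± 0.12 SE, adjusted p = 0.0948). Sult1b1 had 9.13, 8.50, 8.56 and 8.46 in WT and 8.11, 7.75, 7.73 and 8.17 in SIRT7 KO (-0.72 ± 0.16 SE, adjusted p = 0.0883). In both the groups did not overlap. In fits without 1 array, Sult1a1 passed in 2 of 8 (adjusted p up to 0.206) and Sult1b1 in 4 of 8 (up to 0.189). Without WT array 1 the difference of Sult1b1 was -0.57 (adjusted p = 0.156). The median of the list was 0.021.

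All 14 bile acid genes were measured and 0 were called, with a median of 0.045. The smallest p were those of Ch25h, the cholesterol 25-hydroxylase, whose WT level was near background (4.45 ± 0.044 against 4.72 ± 0.18, adjusted p = 0.217), and of Slc27a5, which activates bile acids for conjugation (-0.25 ± 0.089 SE, adjusted p = 0.235). Cyp7a1, the rate-limiting enzyme of bile acid synthesis, was at 10.65 ± 1.24 in WT and 10.54 ± 0.93 in SIRT7 KO (SD, n = 4, adjusted p = 0.959). Of 17 measured steroid receptors and glucocorticoid targets out of 20, the progesterone receptor gene Pgr was called higher (0.25 ± 0.073 SE, adjusted p = 0.147), but its levels of 3.55 ± 0.079 and 3.80 ± 0.091 were below background level in both groups, and it passed in 1 of 8 fits without 1 array (adjusted p up to 0.309). The glucocorticoid receptor gene Nr3c1 was at 9.84 ± 0.16 and 9.69 ± 0.059 (adjusted p = 0.463), and the list had a median of -0.070.

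The male-biased list had 0 calls with a median of 0.0021. The female-biased list had 1 call of 18 with a median of 0.039, namely Cyp3a44, a female-specific P450, at 4.54 ± 0.14 in WT and 4.99 ± 0.17 in SIRT7 KO (0.46 ± 0.10 SE, adjusted p = 0.0882), where the WT level was below background level. It passed in 3 of 8 fits without 1 array (adjusted p up to 0.206). Steroid enzymes are not spread evenly over the liver lobule, and so markers of its zones were read as well. Of 10 pericentral markers 2 were called lower, namely Slc1a2 (-0.93 ± 0.18 SE, adjusted p = 0.0596) and Cyp1a2 (-0.54 ± 0.13 SE, adjusted p = 0.0980). Over all probe sets, 2.39% were called lower. In the pericentral list 3 of the 10 differences were positive, and the median was -0.14. The pericentral list had a mean level of 10.01 to 10.30 in WT and 9.88 to 10.12 in SIRT7 KO. Of 8 measured periportal markers out of 11, 2 were called lower, namely Hal (-0.77 ± 0.14 SE, adjusted p = 0.0536) and Asl (-0.34 ± 0.082 SE, adjusted p = 0.0994). In this list 3 of the 8 differences were positive, and the median was -0.038. Among these 3, Cdh1, named after its value was seen, rose by 0.63 ± 0.18 (SE) and just missed the threshold (adjusted p = 0.151). The mean level of the periportal list ran from 11.61 to 11.81 in WT and from 11.60 to 11.77 in SIRT7 KO. Without 1 array, Slc1a2 passed in 6 of 8 fits, Hal in 7, Cyp1a2 in 2 and Asl in 2. The part of zonation in the values of the members was not tested.

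**Figure D5:**
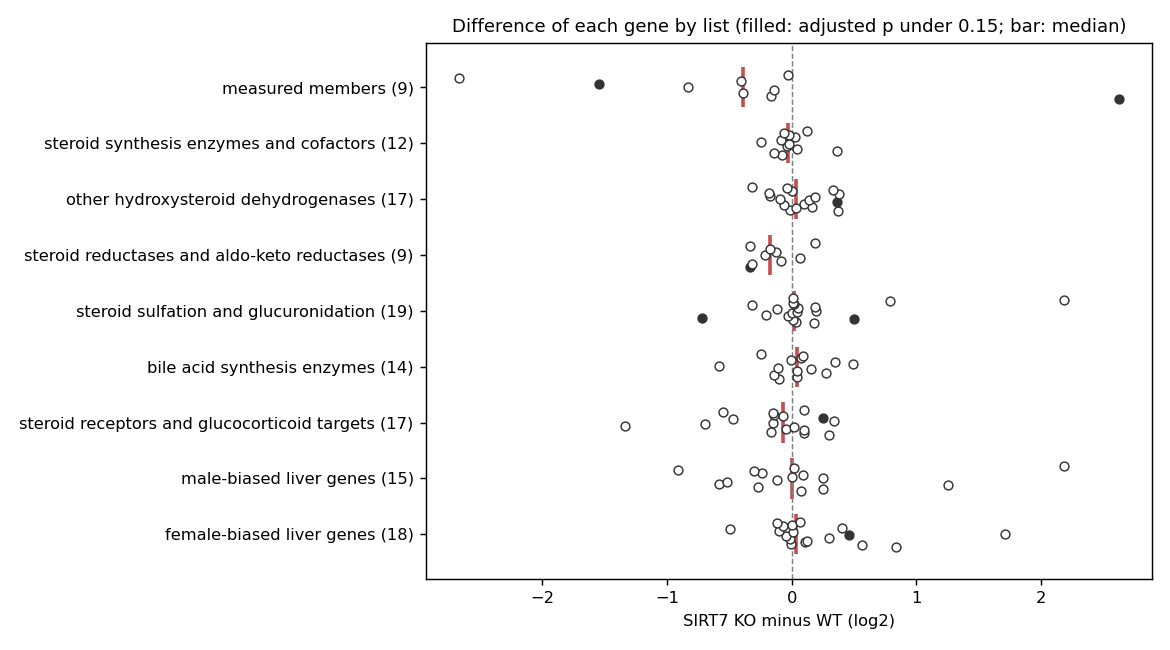
Difference between SIRT7 KO and WT in log2 expression (horizontal axis) of each gene by its brightest probe set for the members and the 8 lists (vertical axis, number measured in parentheses), with filled points for an adjusted p under 0.15 and bars for medians. Cyp17a1 at 2.63 and Hsd3b5 at -2.67 lie at both ends, and in the lists 4 genes are called higher and 2 lower. The filled members, Cyp17a1 and Hsd3b2, were selected on this contrast.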

How the data were processed

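The deposited data were a single table of log2 values per probe set on the 8 arrays. The methods of the study name RMA and the submitters' processing notes name GCRMA, both of which correct background, normalize between arrays and summarise probes, and which of them made the values stays unknown. The values were used as they stand. Of 22690 probe sets, 64 Affymetrix controls were left out. The platform annotation gave 20380 of the others a single symbol, 691 several and 1555 none. Those without a single symbol entered the test, and only the one shared by Hsd3b genes is given.

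Genotypes were compared with limma (version 3.58.1, R 4.3.3; lmFit and eBayes, genotype as the only term, two-sided), with Benjamini-Hochberg adjustment over all 22626 probe sets and a call threshold of 0.15 on the adjusted p, as the study set its false discovery rate. The fit was tested on simulated data. Genes of the lists were represented by their probe set with the highest mean over 8 arrays. Named from each list were up to 5 called genes, or the 2 with the smallest p where none was called; genes named beyond this rule are said to be or were added after their values were seen (Akr1d1, Cyp7a1, Nr3c1, called markers and the examples of the array order). Likeness ranked the 5 genes with the highest correlation. The members and lists were chosen with earlier results of these data known. RefSeq windows were aligned with Biopython (version 1.88). A planned comparison of protein sequences was not run, because no protein table was used here. Precision is limited by having 4 arrays in a genotype. Alternatives were a threshold of 0.05, array weights, trend and robust variance, further quantile normalization, a filter on dim probe sets, the replicate number as a block, any probe set of a gene, and leaving out each array in turn.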

Additional observations from a re-analysis of the deposited data

Results flagged for a closer look

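In 5 of 88 groups of 4 values, 1 array lay far from the others by Dixon's ratio of gap to range, and chance alone gives about 1 in 20. Hsd3b7 was at 12.81 on WT array 4, with the other WT arrays between 13.07 and 13.10. Hsd11b1 was at 12.63 on SIRT7 KO array 4, with the others between 13.03 and 13.10, so this array takes part in its negative difference, which was -0.28 at the nearest to 0 when 1 array was left out. Sult1b1 was at 9.13 on WT array 1, with the others between 8.46 and 8.56. Slc27a5 was at 13.29 on WT array 4, with the others between 13.61 and 13.63. The periportal marker Hal was at 11.25 on SIRT7 KO array 3, with the others between 10.72 and 10.77. Hsd3b5 was not among these, since its SIRT7 KO values form 2 pairs.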

How the results depend on the processing

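The direction of every member difference held under each alternative, except that of Hsd3b7 (-0.032), which was 0.020 without SIRT7 KO array 4 (and -0.10 without WT array 4). Of the other genes named, the small differences of D8Ertd738e (-0.062 to 0.0086 over fits without 1 array, positive without SIRT7 KO 4), Cox4i1 (-0.055 to 0.026, with 0.011 without WT 4, 0.010 without SIRT7 KO 3 and 0.026 without SIRT7 KO 4) and Wdr45 (-0.011 to 0.12, with -0.0020 without SIRT7 KO 1 and -0.011 without SIRT7 KO 2) also turned. Cyp7a1 (-0.11) was 0.050 with array weights and ran from -0.50 to 0.47 over fits without 1 array, with 0.47 without WT 3, 0.24 without SIRT7 KO 1 and 0.060 without SIRT7 KO 3. At an adjusted p under 0.05, 156 probe sets were called in place of 975, and of the members 0 were called higher and 0 lower, and of the listed genes 0 and 0. With trend and robust variance, 0 members were called higher (Cyp17a1 was lost) and 2 lower (Hsd3b2 and Hsd11b1). With array weights, 2 members (the same pair) and 5 listed genes were called lower. When 1 array was left out, all calls ran from 222 (without WT array 1) to 900 (without WT array 4), member calls from 0 to 1 higher and from 0 to 2 lower, and calls of listed genes from 0 to 5 higher and from 0 to 2 lower. Cyp17a1 and Hsd3b2 were selected on this contrast, so their calls are described and no test is read from them. Cyp17a1 missed the threshold without WT array 1 (2.57), WT array 2 (2.48) or SIRT7 KO array 2 (2.26). Hsd3b2 did when WT array 1 (-1.49) or SIRT7 KO array 2 (-1.51) was left out. Fewer samples enter these fits, and the cause of the other shifts was not tested. Further quantile normalization, the filter on dim probe sets and any probe set of a gene moved no count by more than 1.5 times.

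The replicate numbers did not pair the arrays. Deviations from the genotype mean correlated at 0.26, -0.25, -0.16 and 0.15 in same-numbered arrays, and 0 of the 4 WT arrays correlated best with their own number. With the replicate block, 628 probe sets were called, with 1 member higher and 1 lower as before (Cyp17a1 and Hsd3b2), and 2 listed genes higher and 1 lower.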
